A study of Mus musculus with 9 samples.

Results

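The genes described here encode the subunits of mitochondrial complex I, measured by RNA-seq in fetal mouse brain after maternal alcohol (EtOH) exposure. Members were chosen by name alone, as every locus of the deposited table whose symbol starts with Ndufa, Ndufb, Ndufc, Ndufs or Ndufv followed by a digit, which leaves out the Ndufaf assembly factors and the acyl carrier gene Ndufab1. The rule found 38 loci with 37 symbols among 27095 loci, since Ndufa10 is listed at 2 loci. All 38 had a mean over the groups of at least 1 FPKM (fragments per kilobase of exon, scaled to library size), a level that 15548 loci reached.

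The study compared 9 wild-type C57BL/6 fetuses (C57BL/6J in the methods) on gestational day 17, with 3 in each of 3 groups. On gestational day 7 the control dams received an injection of lactated Ringer's solution and the dams of both exposed groups one of EtOH at 2.9 g/kg. The exposed fetuses were later scored for ocular and cortical patterning defects, and those with defects formed the EtOH-exposed affected group and those without formed the EtOH-exposed unaffected group, so that these 2 groups share the exposure and differ in outcome. The methods name the tissue as cortex and the labels as fetal brain. All 9 cortex marker loci examined, among them Emx1 and Tbr1, were detected in every group. Markers of ventral telencephalon, thalamus and choroid plexus were also detected in every group, so detection does not settle which name applies. The litters of the fetuses were not stated in the sources used here.

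Complex I, or NADH:ubiquinone oxidoreductase, is the entry point of the respiratory chain, where electrons pass from NADH to ubiquinone while protons are pumped across the inner mitochondrial membrane. Its peripheral arm reaches into the matrix and holds the flavin and the iron-sulfur clusters, and its membrane arm holds the proton channels. The core subunits carry out catalysis and have counterparts in bacteria, whereas the accessory subunits surround them and are needed for assembly and stability. Some core subunits are encoded by mitochondrial DNA. No locus carried the name of one of those 7 genes, so they were not analysed here.

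The deposited table gives 1 FPKM per group and locus, formed by the authors' software from the 3 fetuses. Values of single fetuses were not used here, and the authors' test columns were not used, so the differences below carry no replicate error and no test. The 3 comparisons share groups with each other, so their values are given side by side and are not independent. A difference is the log2 ratio of 2 group values after adding 0.1 FPKM to each, and a locus was counted as past the fold when the log2 ratio reached 0.32 in either direction.

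In the affected group, 37 of 38 complex I loci had a lower FPKM than in the control group on the deposited scale, and 32 of 38 when the groups were rescaled to equal totals over named loci. The median difference was -0.36 on the log2 scale, with single loci from -0.60 to 0.10, against a median of 0.02 over all 15548 loci. Of the 38, 23 (60.5%) were past the fold in the lower direction and 0 in the higher direction. Among all loci, 11.3% were past the fold lower and 12.1% higher in this comparison. With equal totals over named loci the members' median was -0.18 and 7 were past the fold lower, while 760 of all loci were past it lower and 4882 higher.

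In the unaffected group, 37 of 38 loci lay above control on the deposited scale but all 38 lay below it after rescaling to equal totals over all loci. That rescaling put the median over all loci at -0.32, with 7845 past the fold lower and 324 higher. Only 1 of the 38 lay below that median. The median difference was 0.14 on the deposited scale, the single loci ran from -0.01 to 0.24, and the median over all loci was 0.01. No complex I locus was past the fold in either direction, where the share among all loci was 6.8% lower and 5.45% higher. The loci were close together in this comparison, with an SD among members of 0.05, against 0.16 in affected against control.

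Between the 2 exposed groups, all 38 loci were lower in the affected group on the deposited scale, 32 after rescaling to equal totals over all loci and 34 after rescaling over named loci. The median difference was -0.49, with a range from -0.81 to -0.05, and the median over all loci was 0.01. Of the 38, 32 (84.2%) were past the fold lower and 0 higher, where the share among all loci was 18.1% lower and 20.3% higher. The median was -0.18 with 8 past the fold lower under equal totals over all loci, and -0.24 with 12 under equal totals over named loci. Under those scalings 617 and 840 of all loci were past the fold lower, and 7653 and 6662 higher. The medians over all loci were then 0.31 and 0.26.

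**Figure D1:**
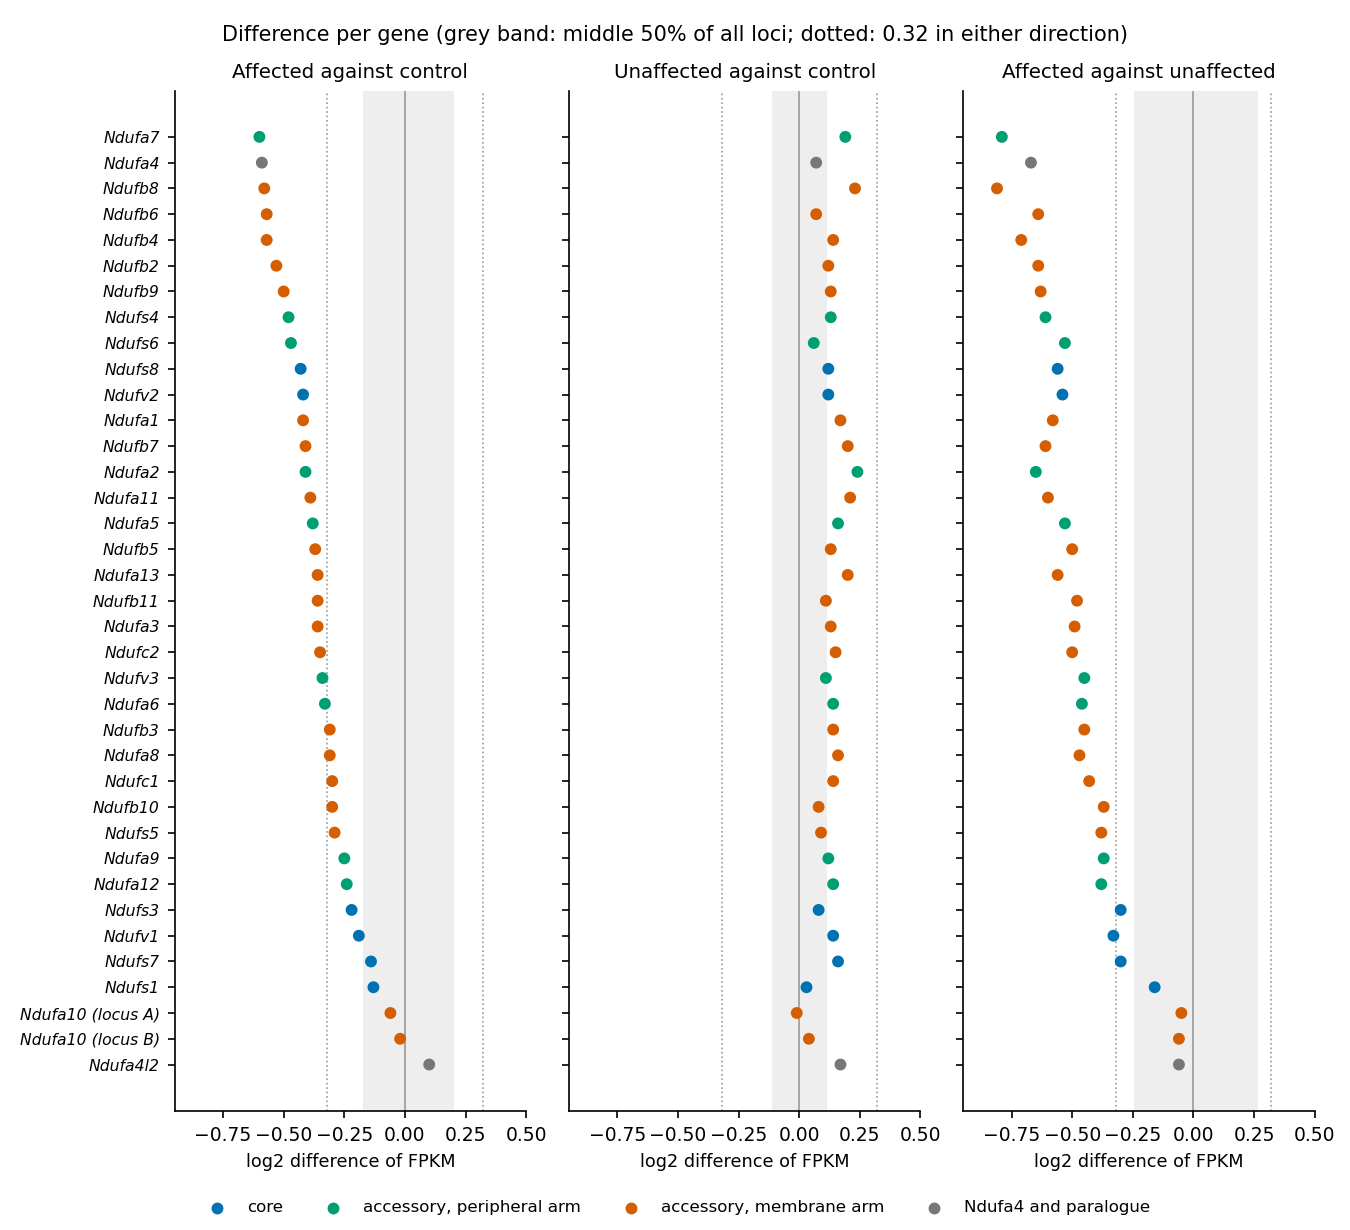
The log2 difference of FPKM for 37 of the 38 complex I loci (1 row each, coloured by role) in affected against control, unaffected against control and affected against unaffected, with the interquartile range of all loci as a grey band and the limits of 0.32 in either direction as dotted lines. Most loci lie left of the band in the first and last panels and close together right of 0 in the middle panel. On a scale of equal totals over all loci every complex I locus lies below 0 in the middle panel, as does the median of all loci, at -0.32.

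The scale bears on these values. Over all loci the FPKM summed to 1683942 in control, to 2124820 in unaffected and to 1716613 in affected, and the 10 highest loci, all without a gene name, held 47.4%, 55.4% and 52.1% of it. Over named loci the totals were 620805, 653321 and 550022. Rescaling moved every difference alike, so the members' median minus the median of all loci was -0.38 for affected against control under each of the 3 scalings, and between 0.12 and 0.13 for unaffected against control. The directions below are those on the deposited scale unless another is named.

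By level, the 38 loci summed to 6992 FPKM in control, 7642 in unaffected and 5329 in affected. Their share of the FPKM of all named loci was 1.13%, 1.17% and 0.969%. The median locus stood at 162 FPKM in control, 177 in unaffected and 125 in affected. The order of the genes by level was nearly the same in every group, with a Spearman coefficient across the 38 loci of 0.996 between control and unaffected, 0.983 between control and affected and 0.981 between unaffected and affected. Genes are not independent replicates, and these coefficients are descriptions.

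**Figure D2:**
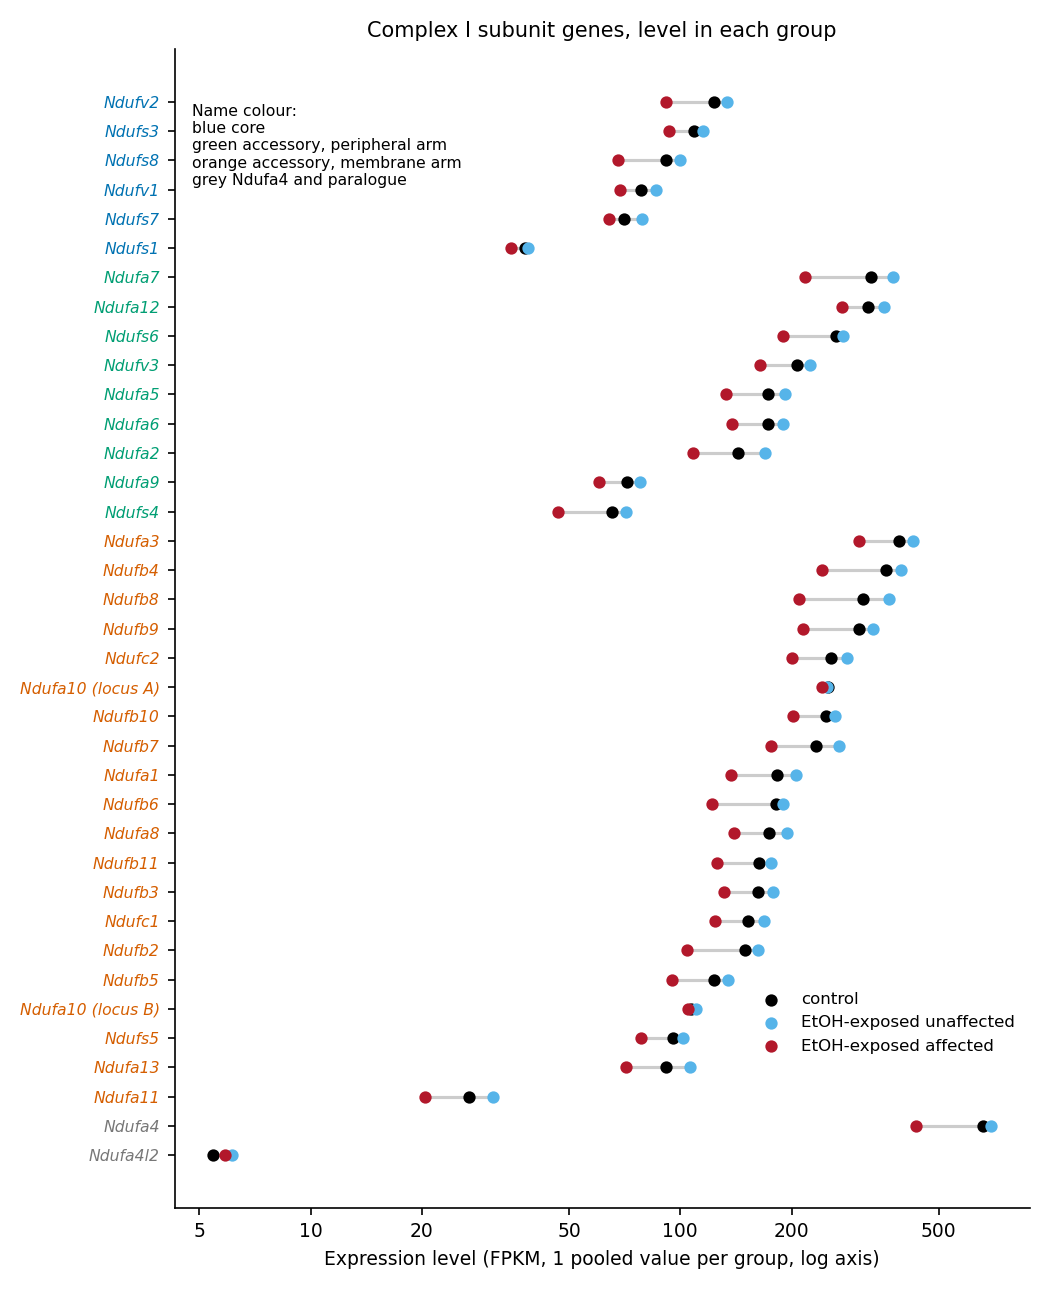
Expression level of 37 of the 38 complex I loci in FPKM on a log axis, with 1 pooled value per group and no error available; names are coloured by role. The affected value is the lowest of the 3 on the deposited scale for every locus shown except Ndufa4l2, and levels run from 5.46 FPKM for Ndufa4l2 to 657 FPKM for Ndufa4 in control.

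The 7 nuclear-encoded core subunits form the electron path, and their median level and median difference were smaller than those of the accessory subunits, a contrast that was not tested. Their median level was 91.7 FPKM in control, 100 in unaffected and 68.5 in affected. The median difference was -0.19 for affected against control, 0.12 for unaffected against control and -0.33 for affected against unaffected. Of the 7, 2 were past the fold in affected against control (28.6%) and 4 in affected against unaffected, where the shares among all loci were 11.3% and 18.1%. These counts depended on the scale. After rescaling over named loci the median for affected against control was -0.02, with 4 of 7 below 0 and 0 past the fold. After rescaling over all loci the median for affected against unaffected was -0.02 with 0 past it. On these scales the medians over all loci were 0.19 and 0.31.

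Ndufs8, which carries a pair of iron-sulfur clusters near the junction with the membrane arm, had 91.7 FPKM in control, 100 in unaffected and 67.9 in affected, a difference of -0.43 for affected against control and -0.56 for affected against unaffected. Ndufv2, an iron-sulfur subunit at the tip of the peripheral arm, had 123, 134 and 91.7 FPKM in the same order, with differences of -0.42 and -0.54. Both lay beyond the fold in each of these comparisons, whereas no other core subunit did so against control.

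Ndufs3, a core subunit of the lower peripheral arm, had 109 FPKM in control, 115 in unaffected and 93.2 in affected, with a difference of -0.22 for affected against control. Ndufv1, which binds the flavin and oxidises NADH, had 78.1, 85.9 and 68.5 FPKM and a difference of -0.19. Ndufv1 was past the fold against the unaffected group only, at -0.33, close to the limit.

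Ndufs7, which carries an iron-sulfur cluster at the ubiquinone-binding site, had 70.6 FPKM in control, 79 in unaffected and 64.3 in affected, with a difference of -0.14 for affected against control. Ndufs1, the largest core subunit of the peripheral arm, had 38.1, 38.8 and 34.8 FPKM and the smallest core difference, -0.13 for affected against control and 0.03 for unaffected against control. Both lay slightly above 0, at 0.04, for affected against control when groups were rescaled to equal totals over named loci. The interval given for Ndufs7 spans 47 loci of the table, so its value rests on how the authors' software divided that region.

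The 9 accessory subunits of the peripheral arm had a median level of 173 FPKM in control, 192 in unaffected and 138 in affected. Their median difference was -0.38 for affected against control, with 7 of 9 past the fold, and -0.53 for affected against unaffected, with 9 of 9 past it, where 11.3% and 18.1% of all loci were past the fold lower. After rescaling over named loci all 9 stayed below 0 in both comparisons, with 1 and 3 past the fold, and 760 and 840 of all loci were past it lower. For unaffected against control the median was 0.14 and the range 0.06 to 0.24.

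Ndufa7 (RefSeq GRCm38.p6, chr17:33824572-33838316, forward strand) had the lowest difference of all members for affected against control, with 329 FPKM in control, 377 in unaffected and 217 in affected, which is -0.60 for affected against control and -0.79 for affected against unaffected. Only 2.82% of all loci had a lower difference than Ndufa7 in affected against control. Ndufs4, an accessory subunit mutated in human Leigh syndrome, had 65.3, 71.4 and 46.6 FPKM and a difference of -0.48 against control. Ndufs6, which binds zinc, had 264, 275 and 190 FPKM and a difference of -0.47. On the deposited scale the affected value was the lowest for each of these 3 genes and the unaffected value the highest, by 0.19 over control for Ndufa7, 0.13 for Ndufs4 and 0.06 for Ndufs6.

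At the other end, Ndufa12, whose paralogue Ndufaf2 is an assembly factor, had 322 FPKM in control, 355 in unaffected and 273 in affected, a difference of -0.24 for affected against control. Ndufa9, which binds NADPH, had 71.7, 77.9 and 60.2 FPKM and a difference of -0.25. Ndufa6, a LYR-motif protein that holds an acyl carrier protein on the matrix arm, had 173, 190 and 138 FPKM and a difference of -0.33, just past the fold. The remaining members Ndufa2, Ndufa5 and Ndufv3 had differences between -0.41 and -0.34 against control, and Ndufa2 had the highest difference of any member for unaffected against control, 0.24, from 143 to 169 FPKM.

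The 20 loci of accessory subunits of the membrane arm had a median level of 178 FPKM in control, 192 in unaffected and 134 in affected. Of these, 13 were past the fold for affected against control (median -0.36) and 18 for affected against unaffected (median -0.50), where 11.3% and 18.1% of all loci were past it lower. After rescaling over named loci 18 of 20 lay below 0 in both comparisons, with 5 and 8 past the fold, beside the same 760 and 840 of all loci. The range was wide, from -0.58 to -0.02 against control.

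Ndufb8 (chr19:44548571-44555442, reverse strand) had 312 FPKM in control, 366 in unaffected and 209 in affected, with differences of -0.58 against control and -0.81 against unaffected, the latter the lowest of all members. Ndufb6 had 181, 190 and 122 FPKM and a difference of -0.57 against control. Ndufb4 had 359, 395 and 242 FPKM and a difference of -0.57. These 3 are small proteins of the distal part of the membrane arm, and Ndufb8 differed from Ndufb6 in that its unaffected value stood further above control (0.23 against 0.07).

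Ndufb2 and Ndufb9 followed at -0.53 and -0.50 against control, Ndufb9 being the LYR-motif subunit of the membrane arm. Ndufb7, Ndufa11, Ndufb5, Ndufa13, Ndufa3 and Ndufc2 lay between -0.41 and -0.35. Ndufa8, Ndufb3, Ndufb10, Ndufc1 and Ndufs5 lay between -0.31 and -0.29, just short of the fold, so the count of 23 depends on where the limit is set. Ndufs5, which despite its name sits on the intermembrane side of the membrane arm, had 95.4 FPKM in control, 102 in unaffected and 78.2 in affected.

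Ndufa10, a nucleoside kinase-like subunit on the matrix face of the membrane arm, was the exception among these subunits. Its first locus had 251 FPKM in control, 249 in unaffected and 241 in affected, a difference of -0.06 for affected against control. Its second locus had 107, 110 and 105 FPKM and a difference of -0.02, and both lay above 0 (0.11 and 0.15) after rescaling over named loci. Both loci cover the same interval, and their locus numbers place the first among 77 named neighbours on the forward strand and the second among 81 on the reverse strand. RefSeq places Ndufa10 on the reverse strand (GRCm38.p6, chr1:92439486-92473825). Which transcripts gave the first locus was not tested. Without both loci, the members' median stayed at -0.36.

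Ndufa1 and Ndufb11 are the 2 members on the X chromosome. Ndufa1 (chrX:37187588-37191238, reverse strand) had 183 FPKM in control, 205 in unaffected and 137 in affected, with a difference of -0.42 for affected against control and 0.17 for unaffected against control. Ndufb11 (chrX:20615326-20617619, reverse strand) had 163, 176 and 126 FPKM, with differences of -0.36 and 0.11. Both lay within the range of the autosomal members in each comparison.

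Ndufa4 and its paralogue Ndufa4l2 carry the family name, but Ndufa4 is now placed in cytochrome c oxidase (complex IV), and Ndufa4l2 is known as a hypoxia-induced gene. Ndufa4 had the highest level, with 657 FPKM in control, 692 in unaffected and 435 in affected, and a difference of -0.59 for affected against control. Ndufa4l2 had the lowest level, with 5.46, 6.14 and 5.87 FPKM, and was the only member above control in the affected group, at 0.10. The acyl carrier protein Ndufab1, a true subunit that the naming rule leaves out, had 92.5, 102 and 73.7 FPKM and a difference of -0.33. Replacing the Ndufa4 pair by Ndufab1 left the median at -0.36 with 23 of 37 loci past the fold.

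One further subunit, Ndufb1, had no locus of that name. The interval chr12:101968097-102006423 of the table, which contains the position of Ndufb1 in RefSeq, held 2 loci named Cpsf2, a gene for a subunit of the mRNA cleavage machinery. One had 19.4 FPKM in control, 19.4 in unaffected and 19.5 in affected. The other had 159, 171 and 104 FPKM, a difference of -0.61 for affected against control and 0.11 for unaffected against control. Which gene the second locus reflects was not tested, and it is not counted among the members.

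**Figure D3:**
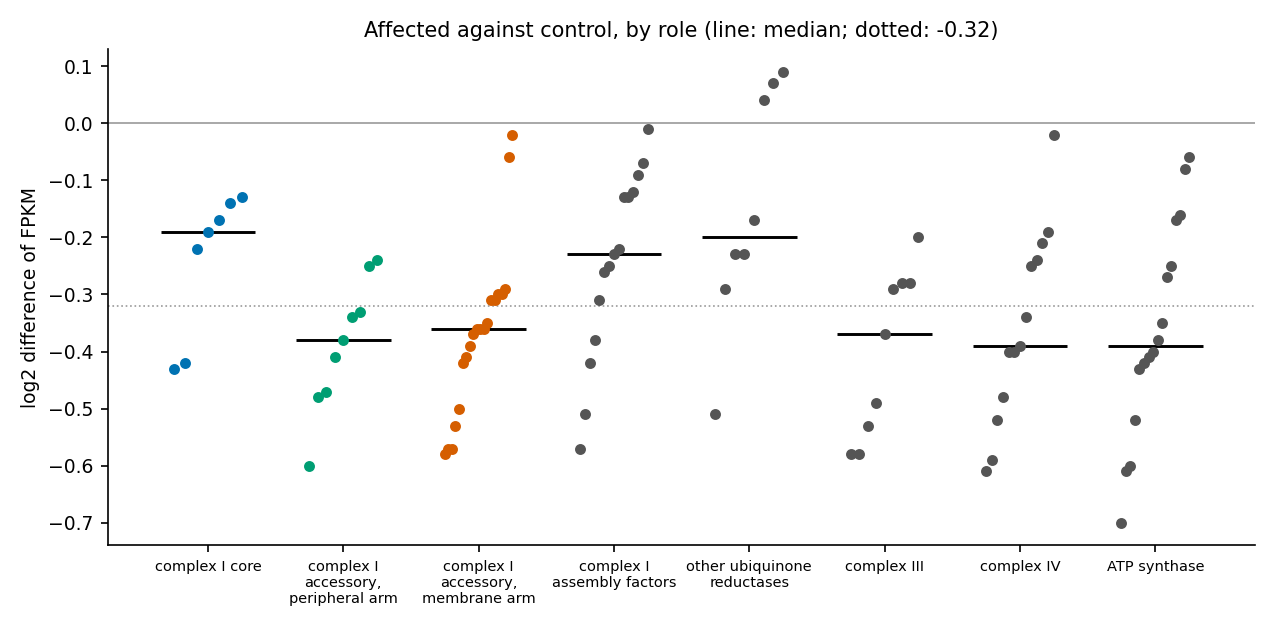
The log2 difference of FPKM for affected against control by role, with 1 point per locus, a line at each median, and the limit of -0.32 as a dotted line. On the deposited scale the medians run from -0.39 (complex IV and ATP synthase) to -0.19 (complex I core); after rescaling over named loci they run from -0.22 to -0.02.

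Genes that work with complex I were read from lists of the assembly factors and of the other respiratory complexes. Of 16 assembly factors, which build the complex without staying in it, 15 were found, all 15 below 0 for affected against control on the deposited scale but 9 of 15 after rescaling over named loci. Over named loci their median was -0.06 with 2 past the fold, where all loci had a median of 0.19 with 760 past the fold lower and 4882 higher. As deposited their median was -0.23 and 4 were past the fold, where 11.3% of all loci were. Those 4 were Ndufaf6 (8.88 FPKM in control, 9.3 in unaffected and 5.95 in affected, a difference of -0.57), Ndufaf5 (-0.51), Ndufaf2 (-0.42) and Ndufaf8, listed under an older name (-0.38). Nubpl, which delivers iron-sulfur clusters to complex I, had the highest difference, -0.01. For unaffected against control the median was 0.09 and none was past the fold, and for affected against unaffected it was -0.30 with 6 past it, where 18.1% of all loci were. After rescaling over all loci these medians were -0.24, with all 15 below 0, and 0.00, with 7 below 0 and 2 past the fold. The medians over all loci were then -0.32 and 0.31. In affected against unaffected 617 of all loci were past the fold lower and 7653 higher on that scale.

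The 8 genes of the other enzymes that reduce ubiquinone had a median of -0.20 for affected against control (-0.02 after rescaling over named loci). Of all loci 11.3% were past the fold lower, and of these 8 genes 1 was, a similar share. Among them the succinate dehydrogenase gene Sdhd had 99 FPKM in control, 112 in unaffected and 69.6 in affected, a difference of -0.51. Sdha, its flavoprotein subunit, had 60.8, 59 and 64.7 FPKM, a difference of 0.09. In the same comparison, nuclear genes of complex III had a median of -0.37 with 5 of 9 past the fold (lowest Uqcrh and Uqcr10 at -0.58, highest Uqcrc1 at -0.20). Complex IV had -0.39 with 8 of 13 (Cox7c at -0.61 to Cox4i2 at -0.02), and ATP synthase -0.39 with 10 of 16 (Atp5e at -0.70 to Atp5a1 at -0.06), where 11.3% of all loci were past the fold lower. After rescaling over named loci the counts were 3 of 9 for complex III (median -0.20), 3 of 13 for complex IV (median -0.22) and 4 of 16 for ATP synthase (median -0.21, with 4 loci above 0). On that scale 760 of all 15548 loci were past the fold lower and 4882 higher, with a median of 0.19. None of these medians is read as different from that of complex I, since no test between lists was made.

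The complex I genes are short and highly expressed. The median over GENCODE M21 transcripts gave a length for all 38 loci, with a median of 733 nt (382 to 2413), and 30 were under 1000 nt, while the other loci with a length had a median of 2177 nt. Across all loci the difference of affected against control moved with length. The other loci had a median of -0.16 below 600 nt, -0.12 between 600 and 800 nt, -0.15 between 800 and 1000 nt, -0.08 between 1000 and 2000 nt, 0.05 between 2000 and 4000 nt and 0.19 above 4000 nt. The complex I loci had -0.41 below 600 nt (13 loci), -0.33 between 600 and 800 nt (8 loci), -0.36 between 800 and 1000 nt (9 loci) and -0.19 between 1000 and 2000 nt (7 loci). The member with the highest median length, Ndufb2 at 2413 nt, had -0.53, where other loci of its band had 0.05. These lengths are medians over annotated transcripts and need not be those of the mRNA expressed here. Ndufs1, the largest core subunit of the peripheral arm, was given 651 nt.

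Other loci of similar length and level were examined beside the members. The 628 other loci with a mean of at least 50 FPKM and a transcript under 1000 nt had a median of -0.26 for affected against control, 0.12 for unaffected against control and -0.40 for affected against unaffected. Of these, 37.9% were past the fold lower in affected against control, compared with 60.5% of the complex I loci and 11.3% of all loci. In affected against unaffected the shares were 59.4% and 84.2%. These medians moved with the scale as the members' did, to -0.09 for affected against control over named loci and, over all loci, to -0.22 for unaffected against control and -0.09 for affected against unaffected, with 75 loci past the fold lower and 75 higher. Other short and abundant transcripts thus lay on the same side of all loci as the complex I genes, and the part of length and level in the members' difference was not tested.

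**Figure D4:**
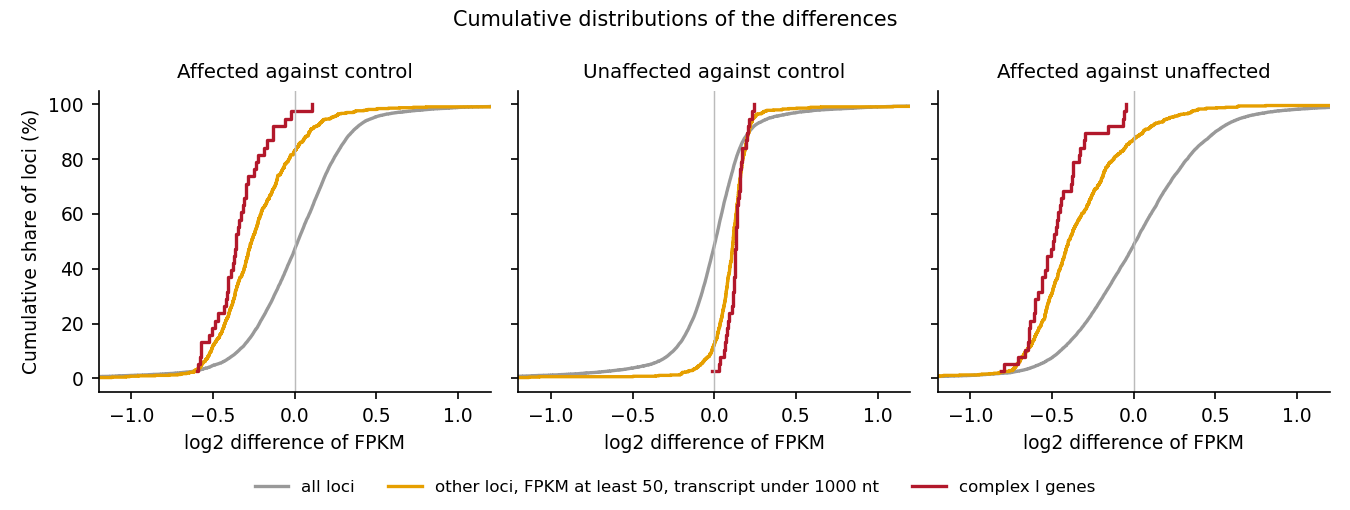
Cumulative share of loci in percent against the log2 difference of FPKM for all 15548 loci, for 628 other loci of at least 50 FPKM and under 1000 nt, and for the 38 complex I loci. In affected against control, on the deposited scale, the medians of the 3 curves are 0.02, -0.26 and -0.36. Under equal totals over all loci the middle panel shifts below 0 for all 38 complex I loci, and for the median of all loci, to -0.32.

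**Figure D5:**
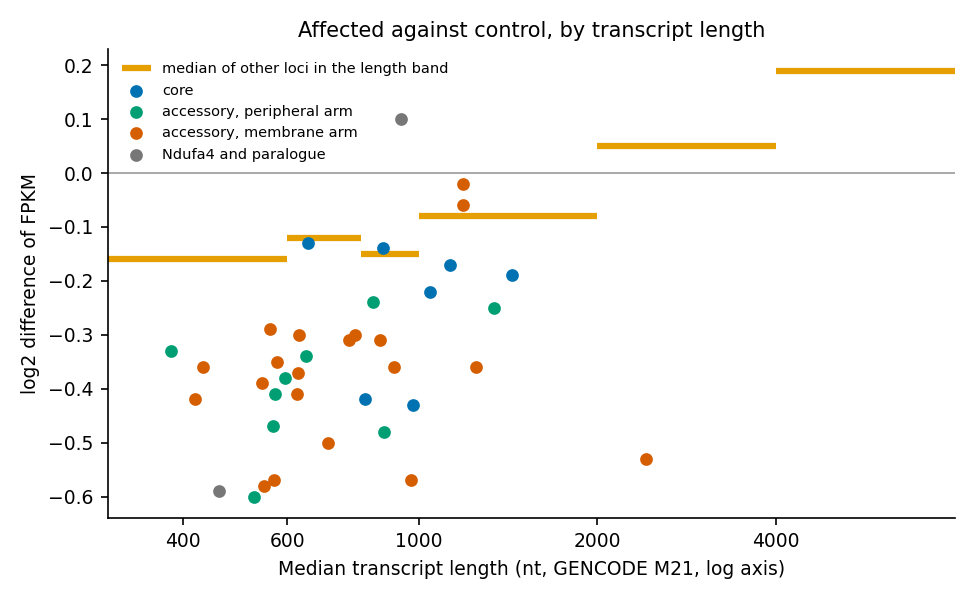
The log2 difference of FPKM for affected against control against median transcript length in nt (log axis) for the 38 complex I loci, coloured by role, with the median of other loci in each length band as an orange line. On the deposited scale most complex I loci lie below the line of their band, and the lines stand at -0.16 below 600 nt and at 0.19 above 4000 nt.

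Within the members, the difference of affected against control was lower for more abundant genes, with a Pearson r of -0.591 and a Spearman rho of -0.471 against log2 FPKM in control over 38 loci. Against log2 transcript length the coefficients were 0.336 and 0.432. The control value enters both the difference and the level, so the first pair is not free of a built-in relation. Leaving out Ndufa4, Ndufa4l2 and the Ndufa10 loci, they were -0.466 and -0.422 for level and 0.18 and 0.302 for length over 34 loci. For unaffected against control the coefficients with level were -0.102 and -0.055.

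Markers of sex and of other cells also moved between the groups. Xist, expressed from the inactive X chromosome of females, had 9.24 FPKM in control, 0.021 in unaffected and 10.3 in affected. The Y-linked gene Eif2s3y had 6.56, 21 and 0.0371 FPKM, and Ddx3y had 2.66, 8.4 and 0.00906 FPKM. Kdm5d had 1.67, 5.45 and 0.00182 FPKM, and Uty had 1.06 and 3.63 FPKM and was listed at 0 in affected. Xist was near 0 in the unaffected group and the Y-linked genes were near 0 in the affected group, so for the complex I genes the sex of the fetuses and the outcome of exposure cannot be told apart.

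The 5 erythroid loci (among them alpha and beta globins and Alas2) summed to 5813 FPKM in control, 7519 in unaffected and 3648 in affected, and none was at 0. For affected against control 4 of 5 lay below 0 (median -0.30), and 3 of 5 after rescaling over named loci (median -0.12). For unaffected against control all 5 lay above 0 (median 0.40, and 0.06 under equal totals over all loci). For affected against unaffected all 5 lay below 0 (median -0.70, and -0.39 under equal totals over all loci). The part of blood in the complex I differences was not tested. Cortex markers ran the other way, with sums of 946, 851 and 1096 FPKM and a median difference of 0.33 for affected against control over 9 loci. The 8 neuronal loci had a median of 0.01, with 4 below 0 and 4 above, from -0.33 to 0.34, and sums of 3977, 3954 and 3747 FPKM. After rescaling over named loci the neuronal median was 0.19, with 1 below 0 and 7 above. The 8 progenitor loci had a median of 0.24, with 5 above 0 and 3 below. Their sums of 2475, 2631 and 1878 FPKM were set mostly by Fabp7, with 2015, 2151 and 1352 FPKM. In bulk tissue, fewer cells of a type with many mitochondria and less RNA per cell cannot be told apart, and this holds for every complex I value above.

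Further marker lists were read the same way. For affected against control the medians were 0.07 for 7 ventral telencephalon loci (-0.16 to 0.42), -0.01 for 3 thalamus loci (-0.78 to 0.45), 0.20 for 5 choroid plexus loci (0.11 to 0.88), 0.00 for 6 meninges loci (-0.51 to 0.27), 0.28 for 5 endothelium loci (-0.12 to 0.49) and -0.24 for 6 microglia loci (-0.58 to 0.20). None of these loci was at 0 in any group, and members of 5 of these lists lay on both sides of 0 on the deposited scale. After rescaling over named loci all 7 ventral telencephalon loci (median 0.24) and all 5 endothelium loci (median 0.45) lay above 0. The part of these lists in the complex I differences was not tested.

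The promoters of the complex I genes were searched for the letters of 3 factors known to act on nuclear genes of the respiratory chain. The window ran from 250 bases before to 50 bases after the annotated start, from RefSeq (GRCm38.p6), and 32 of 37 symbols had one; Ndufb9, Ndufa2, Ndufs1 and Ndufa4l2 were among those with none in the table. Both strands were read. The letters were CGCATGCGC for nuclear respiratory factor 1 (NRF1), CCGGAAG for the ETS family that includes GABP (NRF2), and AAGATGGCG for YY1, and no member's promoter held the letters of more than one factor.

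Matches are shown as 30-base windows, 5′ to 3′ on the strand of the gene, with the matched letters in capitals, because they show where in each promoter a match lies. NRF1 letters were found in 2 of 32 members (6.25%), against 1.95% of all 27025 genes with a promoter and 4.26% of 9371 other genes whose locus passed the filter. In Ndufa11 the 2 strands matched at overlapping positions from 60 bases before the start, and in Ndufa8 the match began 9 bases before it.
Ndufa11 (chr17:56717692-56717721, forward strand): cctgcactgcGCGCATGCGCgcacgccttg
Ndufa8 (chr2:36049328-36049357, reverse strand): tcgctggagaCGCATGCGCagatggtaccg

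ETS letters were found in 4 of 32 members (12.5%), against 9.93% of all genes and 19.8% of the other genes that passed the filter. They lay 232 bases before the start in Ndufb6, 20 bases before it in Ndufb7, and from base 16 of the transcript in Ndufs8. In Ndufs3 there were 2 matches, on opposite strands, 27 bases before the start and from base 2 of the transcript.
Ndufb6 (chr4:40279635-40279664, reverse strand): tcgtccttgttCTTCCGGtcccctccccta
Ndufb7 (chr8:83566727-83566756, forward strand): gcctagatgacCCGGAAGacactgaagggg
Ndufs3, upstream match (chr2:90904730-90904759, reverse strand): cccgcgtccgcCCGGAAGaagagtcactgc
Ndufs3, downstream match (chr2:90904702-90904731, reverse strand): gcacatttccaCTTCCGGtccgtgcccttg
Ndufs8 (chr19:3912741-3912770, reverse strand): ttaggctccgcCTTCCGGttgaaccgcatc

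YY1 letters were found in 5 of 32 members (15.6%), against 1.64% of all genes and 3.59% of the other genes that passed the filter. In each of the 5 the match lay on the strand of the gene and downstream of the start used for the window. Its first letter lay between bases 23 and 36 counted from that start. For Ndufs7 that start lies inside the gene, which begins at chr10:80249105 in RefSeq. The ATG inside the letters was an annotated start codon in GENCODE M21 in 5 of 5, so the letters overlap the first codons of the protein.
Ndufa9 (chr6:126849096-126849125, reverse strand): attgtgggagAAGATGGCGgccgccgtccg
Ndufc1 (chr3:51408914-51408943, reverse strand): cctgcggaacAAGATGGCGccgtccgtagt
Ndufs4 (chr13:114388045-114388074, reverse strand): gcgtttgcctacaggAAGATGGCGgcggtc
Ndufs6 (chr13:73328433-73328462, reverse strand): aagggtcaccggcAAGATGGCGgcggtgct
Ndufs7 (chr10:80249463-80249492, forward strand): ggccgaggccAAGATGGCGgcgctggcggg

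For affected against control the median was -0.30 for the 5 members with YY1 letters and -0.36 for the 27 without, and it was -0.42 for the 4 with ETS letters and -0.36 for the 28 without. The 2 members with NRF1 letters had -0.35, against -0.36 for the 30 without. A match is a description of the letters and not of binding, and no test was made between these small sets.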

How the data were processed

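RNA-seq of 9 fetuses was analysed as 3 groups of 3 by the titles in the labels. The methods describe 50-bp paired-end reads of TruSeq libraries, give STAR in one place and TopHat with Bowtie in another as the aligner to mm10, and name Cufflinks; the submitters' processing notes name Bowtie2 2.2.4.0, Cufflinks and Cuffdiff. The RNA kit differs between methods (RNeasy) and labels (Trizol). The deposited FPKM are fragments scaled by the authors to exon length and library size, with 1 pooled value per group and locus. The table's columns of fold changes, test statistics, p-values and q-values hold the authors' own comparisons and were not used. Fragment counts behind each value were not determined here, so no counting interval is given.

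From the FPKM, log2 ratios (0.1 added) were computed for 27095 loci, of which 3871 have no name and 351 have joined names. Loci with a mean of at least 1 FPKM and a log2 ratio of at least 0.32 in size were counted. With 1 value per group and the authors' tests not used, no test was made. The computation of differences, medians and fold counts was checked on simulated group values with known shifts. That check covers the arithmetic and not replicate spread, scaling or transcript length. Transcript lengths (GENCODE M21) were matched for 12326 of 12440 single-name loci that passed (99.1%), or 79.3% of all that passed, so length statements cover single-name loci. Coordinates of genes and promoters are from RefSeq GRCm38.p6. Python 3.11.15, pandas 2.3.3, numpy 2.4.6 and scipy 1.17.1 were used.

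Members and gene lists were chosen with earlier results of these data known. Genes named with values are the core subunits, the 3 lowest and 3 highest of each accessory group, Ndufa4, Ndufa4l2, Ndufab1, members on the X chromosome, and the lowest and highest gene of other lists; further names were chosen after their values were seen, and some genes under this rule are not reported here. Alternatives were pseudocount, filter, fold, total scaling, centring, joined names and membership, with scaling over named loci and leaving out Ndufa10 added after seeing the data.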

Additional observations from a re-analysis of the deposited data

How the results depend on the processing

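The medians and counts of complex I loci past the fold were recomputed under each alternative. A value was taken as kept when its sign held and it stayed within 1.5 times, since the pooled values used here carry no replicate spread. Of the alternative medians, 25 were kept, 4 moved and 1 reversed, and of the alternative counts 29 were kept and 7 moved. All values under another pseudocount, filter on low values, treatment of joined names, centring or membership were kept in this sense, the largest shift in a count being from 23 to 25 under centring. No member had a joined name and every member passed the filter. Leaving out joined names or dropping the filter therefore could not change these values, and their agreement carries no information. With equal totals over all loci, the median for unaffected against control reversed to -0.20 with 1 locus past the fold, and affected against unaffected moved to -0.18 with 8 loci. With equal totals over named loci, an alternative chosen after seeing the data, the medians moved to -0.18 for affected against control (7 loci past the fold), 0.06 for unaffected against control and -0.24 for affected against unaffected (12 loci). The shares of all loci past other folds were not determined here. A fold of 1.5 left 2 loci for affected against control and 11 for affected against unaffected, and a lower limit of 0.20 on the log2 scale gave 4 for unaffected against control. These shifts follow from how each alternative is built. Among all loci, the share of calls that were lower in affected against control was 48.4% as deposited, 56% with totals over all loci and 13.5% over named loci. The same shares were 55.5%, 96% and 70.2% for unaffected against control, and 47.1%, 7.46% and 11.2% for affected against unaffected. No paired analysis was possible because the table has 1 pooled value per group and its columns carry no replicate numbers, and for the same reason no fetus could be left out. Depth behind single values was not determined here.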
